A study of Mus musculus with 12 samples.

Results

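Cathepsins are the proteases of the lysosome, and cystatin C is a secreted inhibitor of the cysteine cathepsins. The genes described here are the 9 cathepsin genes Ctsa, Ctsb, Ctsd, Ctsf, Ctsh, Ctsk, Ctsl, Ctss and Ctsz, together with Cst3, which encodes cystatin C. They were chosen by symbol and make up 10 of the 27998 genes counted in single cells of mouse hind limb joints. Their levels were followed over the cell types of the joint, over subsets of its fibroblasts and over 12 libraries. All animals were wild-type C57BL/6 mice, which the methods give as males of 8 to 10 weeks. Arthritis was induced by 100 µl of intravenous serum from K/BxN mice, whose autoantibodies cause a transient joint inflammation. Joints were taken from untreated mice on day 0 (rest), and after serum on days 7 to 9 (peak), day 15 (resolving) and day 22 (resolved), with 3 libraries for each label. A library pooled cells from the joints of 3 animals, so the pool and not the animal is the replicate. Live CD45-negative cells were sorted, which leaves out most leukocytes, and captured with 3′ chemistry that counts each transcript by a unique molecular identifier (UMI).

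Most cathepsins are made as inactive precursors, are tagged with mannose 6-phosphate and reach the lysosome through receptors that bind this tag. Ctsb, Ctsf, Ctsh, Ctsk, Ctsl, Ctss and Ctsz encode cysteine proteases, Ctsd an aspartic protease and Ctsa a serine carboxypeptidase that also protects other lysosomal enzymes. Cathepsin K is best known from osteoclasts, where it degrades bone collagen, and it is also made by synovial fibroblasts. Cathepsin S processes the invariant chain in antigen-presenting cells. Cystatin C is released by many cell types and inhibits cysteine cathepsins outside the cell. Genes of the lysosome often carry an E-box of the form TCACGTGA near their start, which is bound by Tfeb, Tfe3 and Mitf.

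Promoter sequences were taken from RefSeq (GRCm38.p6), with 8 of the 10 genes matched, and the 250 bases before each start were searched on both strands. TCACGTGA was present in 258 of 32851 promoters (0.785%), and among the matched genes it was found in Ctsa and Ctsd. Both stretches are shown because they carry this motif, which is in capitals, and both lie in annotated exons in GENCODE M21.
Ctsa: gaacaatgagcaaactgTCACGTGAtgcag
Ctsd: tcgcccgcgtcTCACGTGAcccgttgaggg
The Ctsa stretch is chr2:164833743-164833772 on the plus strand, at positions -30 to -1 of one of its annotated starts. The Ctsd stretch is chr7:142387908-142387937 on the minus strand, at positions -110 to -81. The shorter core CACGTG, which every TCACGTGA contains, was present in 6.02% of all promoters and in 4 of the 8 matched genes, Ctsa, Ctsd, Ctsf and Ctsl. Ctss is shown for a different reason. It was the gene whose level in the joint lay almost wholly in immune cells, and its promoter held 2 copies of GAAA with 2 bases of any kind between them, the spacing seen in sites of interferon regulatory factors, which is in capitals in this plus-strand stretch at chr3:95526726-95526785, positions -60 to -1.
Ctss: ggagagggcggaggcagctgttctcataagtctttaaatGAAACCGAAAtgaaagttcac
That motif was chosen after the Ctss sequence had been seen. It was present in 2.98% of all promoters and in no other of the matched genes. These matches describe letters only, and binding was not measured.

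After filtering, 20060 of 21042 deposited cells were kept, 1227 to 2747 in each library, with 7468914 to 16566202 UMIs for each library. No barcode was shared between libraries. Clustering gave 27 clusters, which were named from marker genes, and each fibroblast-like cluster carried at least 5 of 7 fibroblast markers. Fibroblast-like cells were the most numerous with 12200 cells, 676 to 1882 in each library. The other named types were vascular endothelial-like (1767 cells), tenocyte-like (1742), osteoblast-like (1516), proliferating (1053), perivascular-like (644), muscle-like (415), chondrocyte-like (311), lymphatic endothelial-like (185), immune-like (118), Schwann-like (75) and erythroid-like (34). Proliferating cells carried the fibroblast markers as well. The libraries stood apart in a way that the labels do not explain. Barcode suffixes run from 1 to 12, and the libraries fall into 4 runs of 3 suffixes each. Over fibroblast-like cells the most similar library belonged to the same run for 10 of 12 libraries, and carried the same label for 1 of 12. Run 1 holds rest replicate 1, peak replicate 1 and resolving replicate 1. Run 2 holds resolved replicate 1, rest replicate 2 and peak replicate 2. Run 3 holds resolving replicate 2, resolved replicate 2 and rest replicate 3. Run 4 holds peak replicate 3, resolving replicate 3 and resolved replicate 3. What a run stands for is not given in the sources used here, and a number of results are given without single runs as well.

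Levels are in CPM, the UMIs of a gene scaled to all UMIs summed over the cells of a type in a library, and are given as mean ± SD over libraries with at least 10 such cells. They are compared along a gene and not between genes. Each type was set against fibroblast-like cells of the same libraries with edgeR's quasi-likelihood test with the library as a block, and all p-values were adjusted over the 9619 genes tested (Benjamini-Hochberg). A gene is said to be higher or lower where the adjusted p was under 0.05 and the log2 fold change was over 0.5 in size. All 9 comparisons share the fibroblast sums, so they are not independent of each other.

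Most of the 10 genes were lower in vessel and muscle cells than in fibroblast-like cells, and few differed in bone and tendon cells. In osteoblast-like cells 2 of 10 were higher (Cst3 and Ctsf) and 0 were lower, against 13% and 14.9% of all genes. Tenocyte-like cells gave the same pair, with 2 higher and 0 lower against backgrounds of 8.86% and 11.7%. In perivascular-like cells 0 were higher and 9 were lower, where 17.7% of all genes were higher and 22.6% lower. Muscle-like cells had 0 higher and 9 lower, against 16.4% and 30.8%, and lymphatic endothelial-like cells had 0 higher and 9 lower, against 12.9% and 26.4%. Vascular endothelial-like cells had 9 lower and 1 higher, against 26.7% and 26.8%. The 1 that was higher, Ctss, rested mostly on a single cell and was tested only through the immune-like sums, as described with that gene. In proliferating cells 0 were higher and 7 were lower, against 7.59% and 13.8%. Chondrocyte-like cells had 1 higher and 3 lower, against 20.4% and 27.1%. That count depended on the scaling, and it was 0 higher and 7 lower with total counts in place of TMM (Ctsa, Ctsd, Ctsh and Ctsf joined Ctsk, Ctsb and Ctsl, and Cst3 was no longer called) and 0 higher and 5 lower after thinning to 2000 UMIs. In immune-like cells 4 were lower, against 19.4%, and Ctss alone was higher, against 11.1%, a call that the filter on low counts had fixed. Over the 10 genes the log2 fold change had a median of -1.26 in vascular endothelial-like cells, where that of all genes was 0.02. It was -1.42 in perivascular-like cells (all genes -0.08), -1.79 in muscle-like cells (-0.32) and -1.88 in lymphatic endothelial-like cells (-0.28). In osteoblast-like and tenocyte-like cells the medians were -0.03 and -0.04, beside 0.01 and -0.04 for all genes. Ctss passed the filter on low counts only because of the immune-like sums, so its differences between types are given as levels with no test.

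How the libraries were scaled mattered for the counts over all genes. Scaling by total counts alone in place of TMM moved the median over all genes (log2 fold change) by 0.55 in lymphatic endothelial-like, 0.26 in vascular endothelial-like, 0.18 in perivascular-like, 0.10 in immune-like, -0.11 in tenocyte-like and -0.20 in chondrocyte-like cells. RLE size factors moved it by 0.36 in lymphatic endothelial-like, 0.12 in vascular endothelial-like and 0.13 in immune-like cells. The genes higher and lower in vascular endothelial-like cells were 2579 and 2570 with TMM and 3600 and 1919 with total counts. In lymphatic endothelial-like cells they were 1245 and 2535 with TMM, 2714 and 1275 with total counts, and 2096 and 1554 with RLE. In perivascular-like cells they were 1702 and 2171, and 2284 and 1613 with total counts. For chondrocyte-like cells the split went from 1965 and 2607 to 1497 and 3354, and for tenocyte-like cells from 852 and 1121 to 682 and 1497. In proliferating cells it was 730 and 1331 with TMM, 1086 and 1082 with total counts, and 497 and 1647 with RLE. For the 10 genes over all 9 types together, 7 calls were higher and 50 lower with TMM, and 6 were higher and 53 lower with total counts. The higher calls include Ctss in immune-like and vascular endothelial-like cells. These totals pool comparisons that share the fibroblast sums. With TMM 7.59% to 26.8% of all genes were higher and 11.7% to 30.8% lower, depending on the type.

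**Figure D1:**
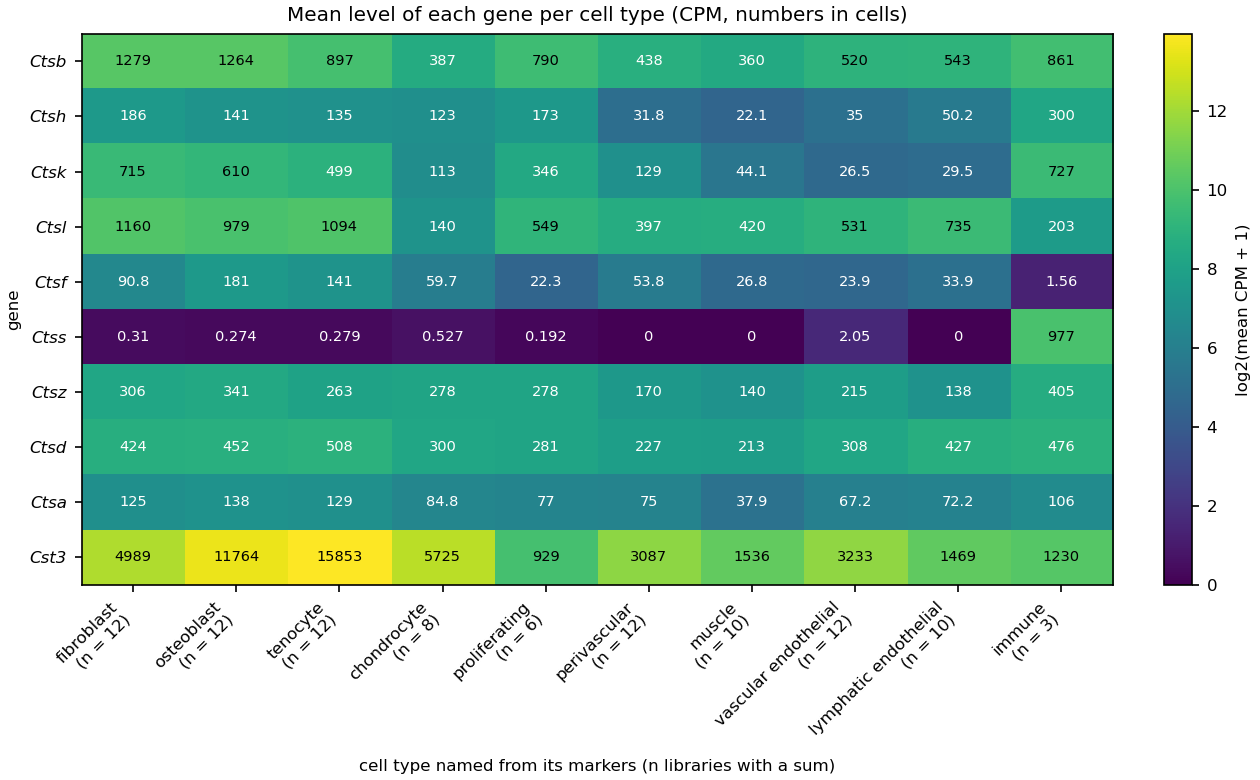
Heat map of the mean level of the 10 genes (rows) in 10 cell types (columns, with the number of libraries that gave a sum); the number in each cell is the mean in CPM and the colour is its log2 after adding 1. Ctsk was at 715 CPM in fibroblast-like cells and at 26.5 CPM in vascular endothelial-like cells, and Ctss was at 977 CPM in immune-like cells and at no more than 2.05 CPM on average elsewhere.

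Ctsk, which encodes cathepsin K (chr3:95499256-95509362, plus strand), had the largest negative log2 fold change of the 10 genes in vascular endothelial-like, lymphatic endothelial-like, perivascular-like and muscle-like cells. Over the 12 libraries, fibroblast-like cells ranged from 325 to 1329 CPM with a median of 653 CPM (mean 715 ± 317, n = 12). Osteoblast-like cells ranged from 500 to 728 CPM (mean 610 ± 71.9, n = 12) and tenocyte-like cells from 312 to 811 CPM (mean 499 ± 154, n = 12). These 3 types overlapped, and neither of the latter differed from fibroblast-like cells in the test (log2 fold change -0.19 ± 0.23 SE, edgeR adjusted p = 0.579, and -0.39 ± 0.24, adjusted p = 0.229). Without run 2, where Ctsk in fibroblast-like cells was lowest, that of tenocyte-like cells was -0.60 and passed both limits. Proliferating cells were at 346 ± 88.7 CPM (n = 6), perivascular-like cells at 129 ± 79.7 CPM (n = 12) and chondrocyte-like cells at 113 ± 67.9 CPM (n = 8). Vascular endothelial-like cells were at 26.5 ± 21.6 CPM (n = 12), and their highest library, 72.7 CPM, lay below the lowest fibroblast library. The log2 fold change there was -4.97 ± 0.30 (edgeR, adjusted p = 1.09e-27), and the gene was lower in 12 of 12 libraries. Muscle-like cells (44.1 ± 56.5 CPM, n = 10) and lymphatic endothelial-like cells (29.5 ± 28.6 CPM, n = 10) were also far lower. At least 1 Ctsk UMI was found in 80.3% of fibroblast-like cells (Wilson 95% interval 79.6 to 81.0%) with a median of 5728 UMIs, and in 4.34% of muscle-like cells (2.76 to 6.75%) with a median of 2772 UMIs. After thinning each cell to 2000 UMIs, and leaving out 212 and 45 shallower cells, these shares were 58.4% and 2.43%. All such intervals cover counting error only.

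Ctsk in immune-like cells rested on a handful of cells. The 3 libraries with at least 10 such cells gave 26.2, 101 and 2054 CPM, a spread wider than the range over the fibroblast libraries. In the pool of 118 immune-like cells, 545 of 562 Ctsk UMIs (97.0%) came from 4 cells that each carried at least 4 of 6 osteoclast markers (Acp5, Mmp9, Calcr, Ocstamp, Dcstamp, Atp6v0d2). The pooled level was 948 CPM with these cells and 31.8 CPM without them. None of the 12200 fibroblast-like cells carried 4 of these markers. Their summed level in fibroblast libraries was 31.8 to 149 CPM, of which Acp5, an acid phosphatase, made up 67.9 CPM on average, while Calcr, Dcstamp, Ocstamp and Mmp9 were each at 0.389 CPM or less on average.

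Ctsb and Ctsl, the broadly expressed endopeptidases cathepsin B (chr14:63122462-63145923, plus strand) and cathepsin L (chr13:64359337-64370890, minus strand), were measured in every type. Ctsb was at 1279 ± 263 CPM in fibroblast-like cells (965 to 1656) and at 1264 ± 117 CPM in osteoblast-like cells (1113 to 1515). These were the types with the highest means and they did not differ in the test (log2 fold change -0.08 ± 0.13, edgeR adjusted p = 0.674). The lowest means were 387 ± 48.8 CPM in chondrocyte-like cells (n = 8) and 360 ± 139 CPM in muscle-like cells (n = 10), whose libraries all lay below every fibroblast library. Ctsl was at 1160 ± 224 CPM in fibroblast-like cells and at 1094 ± 87.8 CPM in tenocyte-like cells (log2 fold change 0.02 ± 0.11, edgeR adjusted p = 0.941). Chondrocyte-like cells stood lowest for Ctsl, at 140 ± 62.6 CPM with a highest library of 261 CPM, and the log2 fold change was -3.06 ± 0.16 (edgeR, adjusted p = 2.00e-31, lower in 8 of 8 libraries). In chondrocyte-like cells Ctsb fell by 1.61 on the log2 scale relative to fibroblast-like cells and Ctsk by 2.40, each in 8 of 8 libraries, while Ctsz differed by 0.03 ± 0.14 (edgeR, adjusted p = 0.897).

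Ctsh, Ctsf and Ctsz encode cathepsin H, an aminopeptidase (chr9:90054152-90076089, plus strand), cathepsin F (chr19:4855130-4860918, plus strand) and cathepsin Z, a carboxypeptidase (chr2:174427493-174439039, minus strand). Ctsh was at 186 ± 26.1 CPM in fibroblast-like cells, and its 12 libraries (150 to 231 CPM) lay above every vascular endothelial-like library (11.9 to 67.1 CPM). The log2 fold change was -2.66 ± 0.16 in vascular endothelial-like cells (edgeR, adjusted p = 6.48e-28), -2.57 ± 0.19 in perivascular-like cells (adjusted p = 7.79e-22) and -2.96 ± 0.26 in muscle-like cells (adjusted p = 4.85e-18). Proliferating cells, at 173 ± 28.6 CPM, did not differ (log2 fold change -0.26 ± 0.17, edgeR adjusted p = 0.257), although 7 of the other 9 genes were lower there. Osteoblast-like cells (141 ± 31.8 CPM) were lower in 10 of 12 libraries with a change just under the limit of 0.5 (-0.50 ± 0.14, edgeR adjusted p = 0.00192). That change passed both limits in 12 alternatives, among them leaving out run 2 (-0.55) and run 3 (-0.62). Immune-like cells had the highest mean Ctsh, 300 ± 108 CPM over 3 libraries, which did not pass the test (0.48 ± 0.27, edgeR adjusted p = 0.183). Over the alternatives that log2 fold change ranged from -0.21 to 1.06, and it passed after thinning to 2000 UMIs (1.06, edgeR adjusted p = 0.00160), with RLE (0.69, adjusted p = 0.0432) and with DESeq2 (0.72, adjusted p = 0.0455).

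Ctsf was highest in osteoblast-like cells, with libraries from 121 to 241 CPM and a median of 195 CPM. In fibroblast-like cells the lowest, median and highest libraries were 35.4, 104 and 132 CPM. The groups overlapped in their ranges, but the paired difference had 1 direction in 12 of 12 libraries (log2 fold change 0.97 ± 0.15, edgeR adjusted p = 2.37e-08). Tenocyte-like cells, at 141 ± 34.2 CPM, were higher than fibroblast-like cells in 10 of 12 libraries (0.79 ± 0.15, edgeR adjusted p = 1.33e-05), a difference that was 0.46 without the 3 libraries of run 2. The gene was listed at 0 in 2 of the 3 immune-like sums and at 4.69 CPM in the other. Ctsz ranged from 405 ± 44.7 CPM in immune-like cells to 138 ± 73.4 CPM in lymphatic endothelial-like cells. Osteoblast-like cells (341 ± 22.4 CPM), fibroblast-like cells (306 ± 58.2 CPM) and tenocyte-like cells (263 ± 51.3 CPM) overlapped, and the 2 tests against fibroblast-like cells gave log2 fold changes of 0.11 ± 0.12 and -0.10 ± 0.12 (edgeR, adjusted p = 0.503 and 0.562).

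Ctss, which encodes cathepsin S (chr3:95526786-95556403, plus strand), was found almost only in the few immune-like cells that passed the CD45-negative sort. The 3 immune-like sums gave 746, 942 and 1244 CPM. Fibroblast-like cells gave 0 to 1.16 CPM with a mean of 0.310 ± 0.328 CPM (n = 12). No library of any other type reached the lowest immune-like value. Among immune-like cells 55 of 118 had a Ctss UMI (46.6%), and among fibroblast-like cells 25 of 12200 did (0.205%, Wilson 95% interval 0.139 to 0.302%). No Ctss UMI was found in 415 muscle-like or 185 lymphatic endothelial-like cells, counts of 0 that allow shares of up to 0.723% and 1.62% of cells with a UMI by the limit of 3 counts (the Wilson upper bounds are 0.917% and 2.03%), nor in the larger group of 644 perivascular-like cells, for which the limit is lower still. Summed over 8 macrophage markers, fibroblast libraries held 1.47 to 4.22 CPM, with no marker at 0 in every library, and immune-like sums held 759 to 2502 CPM. In vascular endothelial-like cells Ctss was counted as higher, but it was in the test only through the immune-like sums, so no test is read there. It was higher than in fibroblast-like cells in 5 of 12 libraries and lower in 5. Of its 12 UMIs in vascular endothelial-like cells, 8 were in 1 cell of resolving replicate 1.

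Within the immune-like cells the genes divided by cluster, described here with no test since 1 cluster took 1 of these genes among its leading genes. The 40 cells led by H2-Aa, Ctss, Cd74 and C1qb held 480 of the Ctss UMIs, in 39 of 40 cells, at 3223 CPM. The same cells were at 2236 CPM for Ctsb, 980 CPM for Ctsd, 893 CPM for Ctsz and 638 CPM for Ctsh. The 40 cells led by Ngp, Camp and S100a8 were at 97.4 CPM for Ctss, with a UMI in 3 cells, and at 162 CPM for Ctsb, 151 CPM for Ctsd, 108 CPM for Ctsz and 151 CPM for Ctsh. All of these were lower than in the cells led by H2-Aa.

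Ctsd, which encodes cathepsin D (chr7:142375911-142388038, minus strand), and Ctsa, which encodes cathepsin A (chr2:164832873-164841032, plus strand), overlapped between fibroblast-like, osteoblast-like and tenocyte-like cells. Ctsd was at 424 ± 73.2 CPM in fibroblast-like, 452 ± 52.8 CPM in osteoblast-like and 508 ± 182 CPM in tenocyte-like cells, ranges that overlapped. Perivascular-like cells, from 164 to 274 CPM, lay below every fibroblast library, the lowest of which was 329 CPM (log2 fold change -1.10 ± 0.15, edgeR adjusted p = 5.65e-10). Lymphatic endothelial-like cells were spread from 149 to 848 CPM, and Ctsd passed the test there with -0.59 ± 0.16 (edgeR, adjusted p = 0.00227) although 5 of 10 libraries were higher and 5 were lower in CPM. With total counts in place of TMM that log2 fold change was -0.03, and without run 4 it was -0.26 and not called. Ctsa was at 125 ± 24.8 CPM in fibroblast-like, 138 ± 16.6 CPM in osteoblast-like and 129 ± 23.9 CPM in tenocyte-like cells, and at 67.2 ± 21.8 CPM in vascular endothelial-like cells (log2 fold change -1.14 ± 0.12, edgeR adjusted p = 8.46e-15, lower in 11 of 12 libraries). Muscle-like cells were lowest, with 10 libraries from 18.2 to 63.1 CPM (mean 37.9) against 86.2 CPM for the lowest fibroblast library. The annotated Ctsa locus overlaps Neurl2 and Pltp on the opposite strand, and Ctsd overlaps the gene model Gm49369 on the same strand. Ctsl overlaps Gm49230 on the same strand and Gm47123 on the opposite strand, and Ctss overlaps the pseudogene Hmgb1-ps5 on the same strand. Ctsb and Ctsz overlap the genes Fdft1 and Nelfcd on the opposite strand. Reads of the stretches shared on the same strand may not be told apart.

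Cst3, the inhibitor (chr2:148871722-148875692, minus strand), had its highest mean in tenocyte-like cells. Their libraries ranged from 8615 to 24353 CPM with a median of 16457 CPM. Osteoblast-like cells ranged from 5779 to 21198 CPM (mean 11764 ± 4374), chondrocyte-like cells from 3461 to 7888 CPM (5725 ± 1451, n = 8) and fibroblast-like cells from 2136 to 8168 CPM (4989 ± 2384). Every tenocyte-like library was above every fibroblast library, and within each library tenocyte-like cells were higher in 12 of 12 (log2 fold change 1.89 ± 0.16, edgeR adjusted p = 2.12e-17), as were osteoblast-like cells (1.25 ± 0.16, adjusted p = 1.71e-10). Chondrocyte-like cells were higher in 6 of 8 libraries (0.60 ± 0.18, edgeR adjusted p = 0.00356), a difference that was 0.09 after thinning to 2000 UMIs. It was 0.31 without run 2 and 0.47 without run 3, and not called in either setting. The median chondrocyte-like cell held 12558 UMIs. The lowest type was proliferating cells, at 929 ± 135 CPM with a range of 774 to 1108 CPM, below every fibroblast library (-1.99 ± 0.22, edgeR adjusted p = 3.13e-12). At least 1 Cst3 UMI was found in 99.3% of fibroblast-like cells and in all 1742 tenocyte-like cells. Among 34 erythroid-like cells, which should hold little of this transcript, 17 had a UMI with 0.824 UMIs per cell, against 30.9 per fibroblast-like cell and 98.1 per tenocyte-like cell.

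Fibroblasts of the joint form a lining layer at the surface of the synovium and a sublining beneath it. The lining-like subset was 1 cluster of 1446 cells led by F13a1, Col22a1 and Prg4, and the sublining-like subset was 2 clusters with 2901 cells. Both were summed in each of the 12 libraries and compared with the library as a block over 6384 genes. Of the 9 genes tested (all but Ctss), 3 were higher in the lining-like subset, Ctsh, Ctsk and Ctsb, where 11.8% of all genes were higher, and 1 was lower, Ctsf, where 14.5% of all genes were lower. With total counts in place of TMM, 978 genes were higher and 755 lower, against 752 and 926. The median log2 fold change of the 9 genes was 0.41, beside -0.004 for all genes.

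Ctsh gave the clearest separation. Its lining-like libraries ranged from 231 to 495 CPM with a median of 315 CPM, and its sublining-like libraries from 106 to 201 CPM with a median of 172 CPM, so the groups did not overlap. The log2 fold change was 0.96 ± 0.10 (edgeR, adjusted p = 3.84e-07). Ctsk ranged from 432 to 1254 CPM in the lining-like subset (median 813) and from 298 to 575 CPM in the sublining-like subset (median 421). The ranges overlapped, but the lining-like sum was higher in 12 of 12 libraries, by 1.16-fold to 2.93-fold (log2 fold change 0.87 ± 0.12, edgeR adjusted p = 5.74e-06). Ctsb, from 1205 to 2245 CPM and from 769 to 1241 CPM, was likewise higher in 12 of 12 libraries (0.76 ± 0.12, adjusted p = 2.69e-05). Of all genes with at least 120 UMIs in fibroblast-like cells, 7.48% were higher in the lining-like subset in 12 of 12 libraries. Ctsd (0.46 ± 0.11, edgeR adjusted p = 0.00197) and Ctsa (0.41 ± 0.11, adjusted p = 0.00364) were higher in 10 of 12 libraries with changes under the log2 threshold of 0.5. Ctsz, Ctsl and Cst3 differed by 0.12, 0.08 and -0.12, with Cst3 higher in 6 of 12 libraries.

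The 3 libraries of run 2 stood apart within the lining-like subset. There Ctsk was at 432 to 528 CPM, against 719 to 1254 CPM in the other 9 libraries, and Ctsd was at 227 to 283 CPM against 463 to 657 CPM. Ctsf was at 17.2 to 23.1 CPM against 54.3 to 99.5 CPM, Ctsb at 1205 to 1418 CPM against 1479 to 2245 CPM, and Cst3 at 1649 to 2322 CPM against 2728 to 7058 CPM. Without run 2, Ctsd (0.67) and Ctsa (0.57) passed both limits, and Ctsh, Ctsk and Ctsb remained higher. The lower level of Ctsf (-0.51 ± 0.19, edgeR adjusted p = 0.0323, lower in 9 of 12 libraries) was -0.20 without run 2 and not called. The call was lost in 10 of 25 alternatives in all. Among these were leaving out run 1, where the change was -0.57 with an adjusted p of 0.0745 (edgeR), and leaving out any 1 of rest replicate 2, peak replicate 1, peak replicate 2 and resolved replicate 1.

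**Figure D2:**
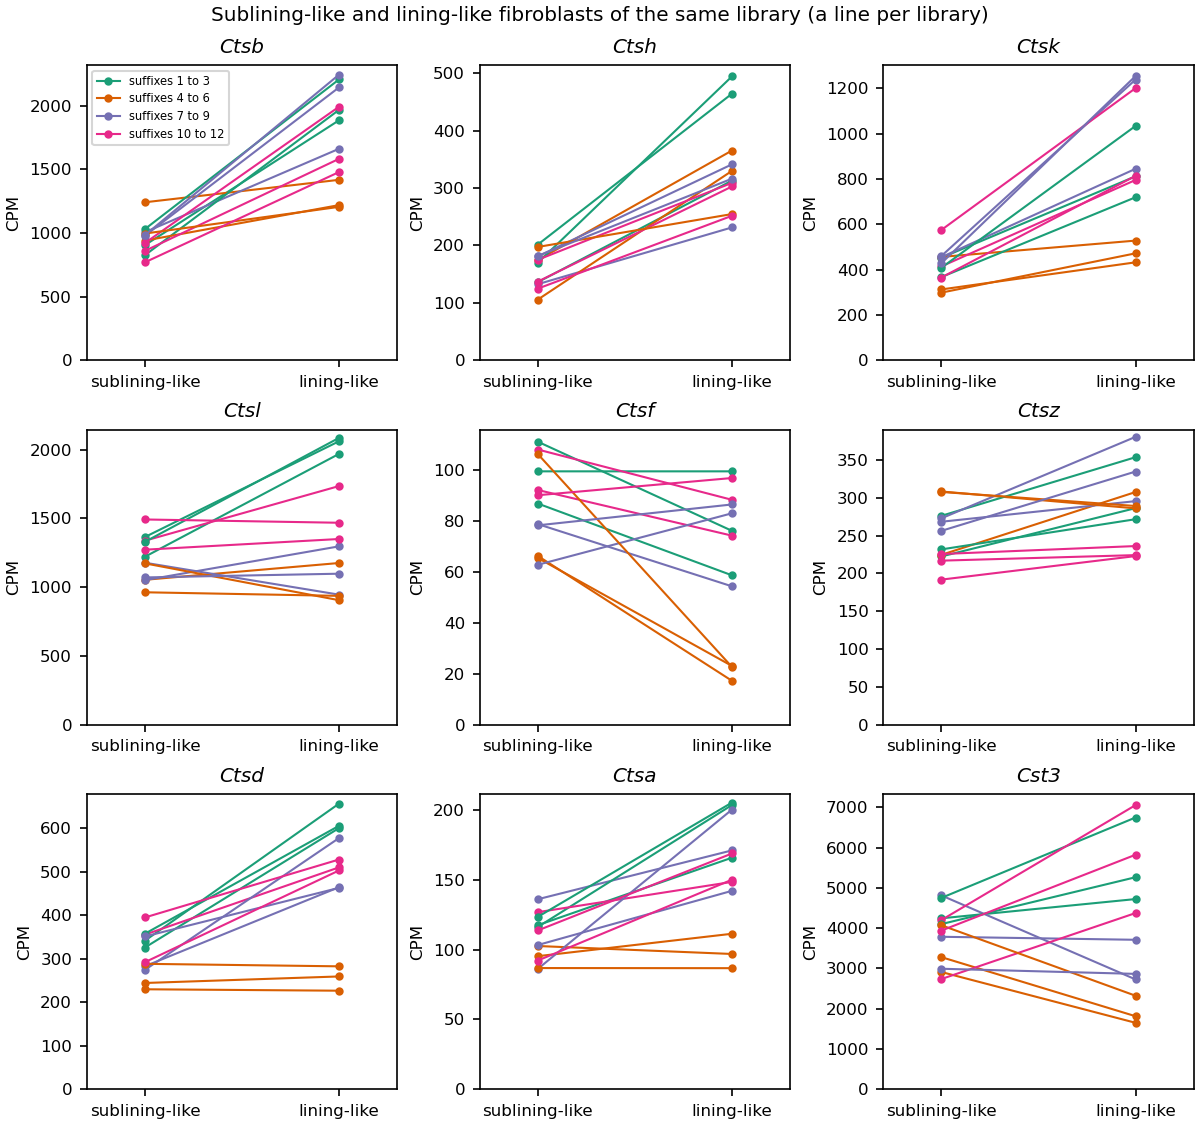
Level of 9 genes in CPM (linear axes from 0, one panel for each gene) in sublining-like fibroblasts on the left and lining-like fibroblasts on the right, with a line joining both subsets of each of the 12 libraries, coloured by run of barcode suffixes. For Ctsh, Ctsk and Ctsb all 12 lines run upwards, and for Ctsf the 3 libraries of run 2 have the lowest lining-like values, 17.2 to 23.1 CPM.

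Among the 10 fibroblast clusters, values are given as a description, and apart from the lining-like comparison the clusters were not tested against each other. None of these genes had entered the clustering. On means over the libraries that each cluster had, Ctsk was highest in the cluster led by Fbln7, Itih2 and Plxdc1 (2090 ± 737 CPM over 5 libraries, 397 cells) and in that led by C1qtnf3, Spon2 and Cthrc1 (1517 ± 950 CPM over 9 libraries, 2252 cells). It was lowest in the clusters led by Saa1, Cytl1 and Inhba (319 ± 132 CPM, n = 6) and by Ifi205, Ccl2 and Ccl7 (321 ± 79.4 CPM, n = 12). The Fbln7 cluster drew 84.4% of its cells from run 4, and the C1qtnf3 cluster drew 90.3% from run 3. When cells were clustered again without the upper limits, 1420 cells led by C1qtnf3, Spon2 and Slc40a1 were named tenocyte-like (5 tenocyte markers). The name of such cells thus depended on those limits. Within the C1qtnf3 cluster Ctsk was at 626 to 775 CPM in the 3 libraries of run 2, at 1102 to 1173 CPM in those of run 3 and at 2591 to 3033 CPM in those of run 4, the last with 12 to 34 cells each. The runs did not overlap there. Within a library, the C1qtnf3 cluster was the highest of all fibroblast clusters in 3 of its 9 libraries (peak replicates 2 and 3 and resolved replicate 3), and in the other 6 the Nppc, lining-like or Fbln7 cluster was above it. The place of the C1qtnf3 cluster in the order of the means thus rested on which libraries it had. In each of its 5 libraries the Fbln7 cluster was the highest or stood below the C1qtnf3 cluster alone. Cst3 had another order. It was at 14416 ± 2948 CPM (n = 12) in the cluster led by Nppc, Egfl6 and Vipr2 and at 12625 ± 3583 CPM (n = 5) in the one led by Fbln7, and it was at 1555 ± 365 CPM (n = 6) in the one led by Cxcl5, Saa3 and Sfrp1, which drew 87.8% of its cells from run 2. Ctsd was highest, at 762 ± 121 CPM, in the Nppc cluster and lowest, at 224 ± 55.7 CPM, in the Ifi205 cluster. Ctsh was at 409 ± 260 CPM in the Saa1 cluster and at 331 ± 79.6 CPM in the lining-like cluster, and between 123 and 186 CPM in the other 8. Ctsf was at 169 and 158 CPM in the Fbln7 and Nppc clusters, and at 31.6 and 40.2 CPM in the Saa1 and Cxcl5 clusters. The cluster that was high in Ctsk and Ctsb (Fbln7, 1981 CPM for Ctsb) was therefore also high in Cst3, while the C1qtnf3 cluster was high in Ctsk and Ctsb (1768 CPM) with Cst3 at 4031 ± 3083 CPM. That mean mixes runs, since Cst3 in the C1qtnf3 cluster was at 6308 to 10366 CPM in run 4 and at 1419 to 2569 CPM in runs 2 and 3. In the libraries that had both, Cst3 was at 6428 to 15177 CPM in the Fbln7 cluster and at 2569 to 10366 CPM in the C1qtnf3 cluster.

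**Figure D3:**
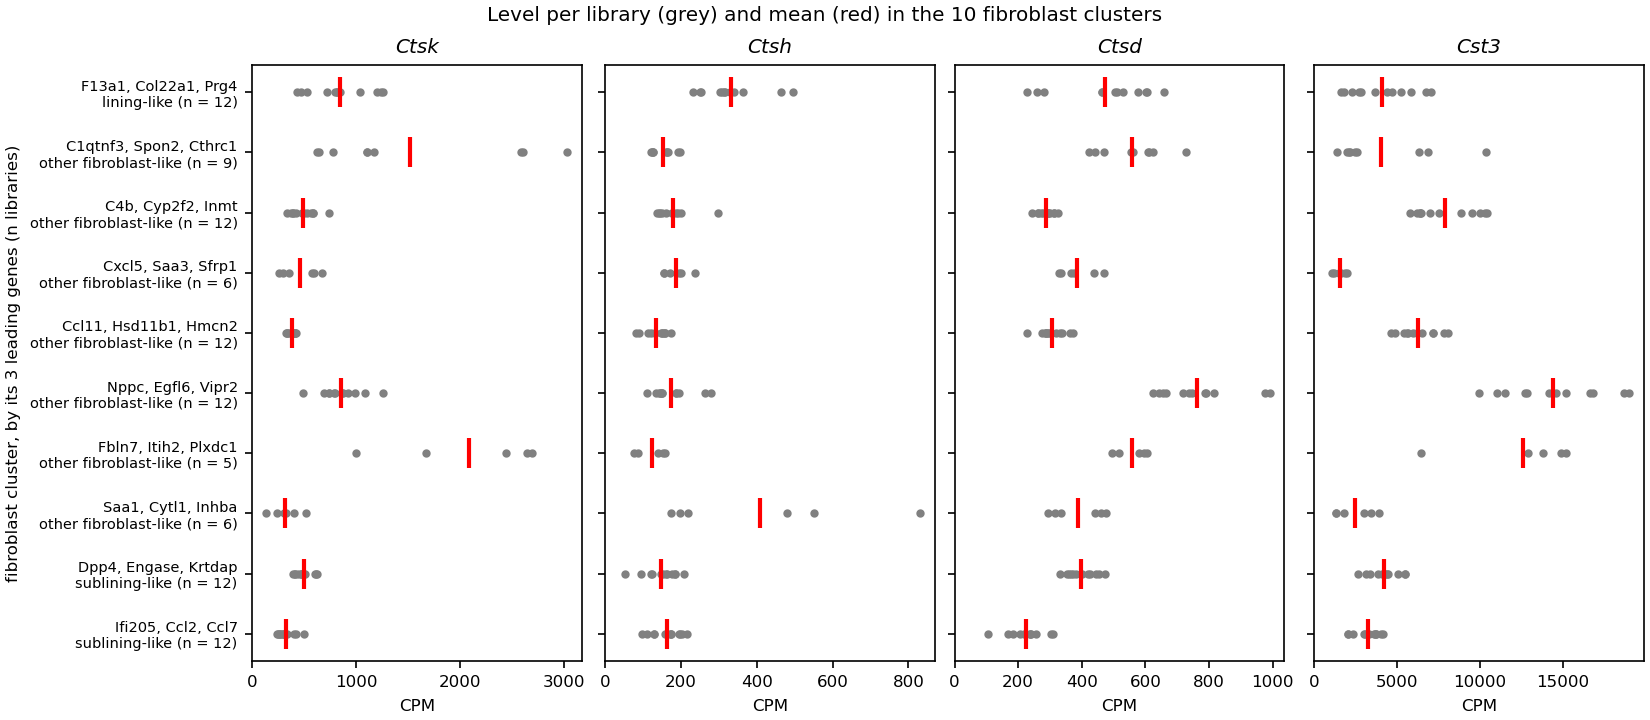
Level of Ctsk, Ctsh, Ctsd and Cst3 in CPM (linear axes from 0) in the 10 fibroblast clusters, named by their leading genes; grey points are libraries and the red bar is their mean. The mean of Ctsk was highest in the clusters led by Fbln7 and C1qtnf3, which were summed in 5 and 9 libraries, and that of Cst3 in those led by Nppc and Fbln7.

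Over whole fibroblast sums, libraries differed by up to 4.09-fold for Ctsk, 3.82-fold for Cst3 and 3.74-fold for Ctsf, and by 1.54-fold for Ctsh. The differences followed the runs of suffixes. For 7 of 10 genes at least 1 run lay wholly above or wholly below the other 9 libraries, where 43.4% of all genes did so. Run 2 was below the other 9 libraries in Ctsk (325 to 448 CPM against 458 to 1329 CPM), Cst3 (2136 to 2819 CPM against 2947 to 8168 CPM), Ctsf (35.4 to 42.3 CPM against 86.2 to 132 CPM), Ctsl (812 to 938 CPM), Ctsd (329 to 358 CPM) and Ctsa (86.2 to 96.1 CPM). Run 3 was above the others in Ctsz (381 to 395 CPM), Ctsd (514 to 549 CPM) and Ctsa (148 to 161 CPM), and run 4 was below them in Ctsz (222 to 259 CPM). Ctsb, Ctsh and Ctss had no such run. The makeup of the fibroblasts moved with the runs too. Sublining-like cells were 37.0 to 47.2% of fibroblast-like cells in run 1, 10.5 to 14.9% in run 2, 8.77 to 16.3% in run 3 and 28.7 to 40.6% in run 4. Their part in the differences between runs was not tested, beyond the values within clusters. In the cluster led by C4b, present in all 12 libraries, only Ctsl had a run outside the others (run 4, 1257 to 1378 CPM against 1000 to 1183 CPM). Other clusters differed from it, since run 2 was below the other 9 libraries in the lining-like cluster, also present in all 12, for Ctsk, Ctsd, Ctsf, Ctsb, Ctsa and Cst3, and the runs did not overlap for Ctsk in the C1qtnf3 cluster. In other types other runs stood apart for this inhibitor. Cst3 in osteoblast-like cells was highest in run 4 (14870 to 21198 CPM against 5779 to 13181 CPM), and in tenocyte-like cells it was lowest in run 3 (8615 to 10643 CPM against 14401 to 24353 CPM).

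**Figure D4:**
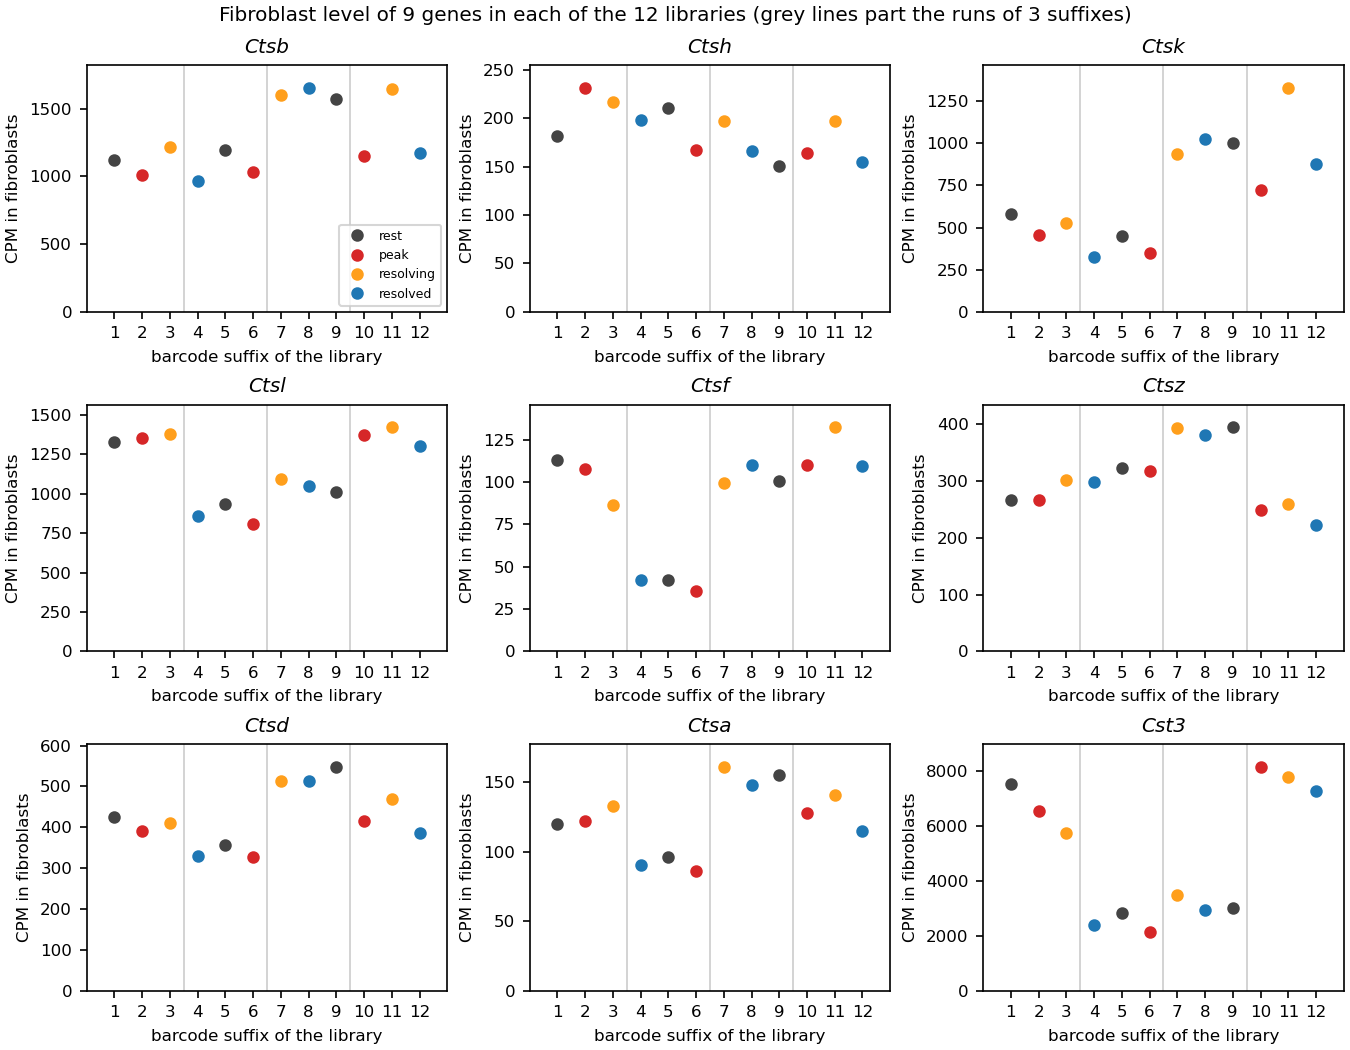
Level of 9 genes in CPM (linear axes from 0, one panel for each gene) in the fibroblast-like cells of the 12 libraries, placed by barcode suffix and coloured by the label rest, peak, resolving or resolved; grey lines part the 4 runs of 3 suffixes. For Ctsk and Cst3 the 3 libraries of run 2 (suffixes 4 to 6) were the lowest of all.

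The time points were compared with rest over the fibroblast sums of 12 libraries, with 3 per label in 1 model. Ctsk was at 583, 448 and 999 CPM in the rest libraries (replicates 1, 2 and 3). The peak libraries were at 458, 346 and 723 CPM, the resolving libraries at 527, 938 and 1329 CPM and the resolved libraries at 325, 1024 and 876 CPM. All 4 groups overlapped. The log2 fold changes from rest were -0.38 ± 0.49, 0.47 ± 0.49 and 0.16 ± 0.49. Cst3 was at 7523, 2819 and 3028 CPM at rest, at 6557, 2136 and 8168 CPM at peak, at 5754, 3491 and 7792 CPM when resolving and at 2385, 2947 and 7267 CPM when resolved. These groups overlapped as well, and the log2 fold changes were 0.39 ± 0.59, 0.37 ± 0.59 and -0.01 ± 0.59. Among the other genes Ctsb had means of 1298 ± 241 CPM at rest, 1066 ± 77.4 CPM at peak, 1488 ± 235 CPM when resolving and 1264 ± 355 CPM when resolved (SD, n = 3 each). Ctsd, Ctsl, Ctsh, Ctsf, Ctsa and Ctsz moved by at most 0.33 on the log2 scale in any of the 3 comparisons.

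None of the 9 genes tested passed at any time point with edgeR, where 0% of 11982 genes passed either way. At an unadjusted p under 0.05 the test had 85 genes (0.709%) at peak, 69 (0.576%) when resolving and 58 (0.484%) when resolved, and DESeq2 called 1 gene lower in each comparison, which was none of the 9. The adjusted p-values of the 9 genes were 0.9999 at peak, 0.9995 when resolving and 0.9997 when resolved. None of the 9 separated its libraries from the rest libraries without overlap at any time point, where 3.15%, 3.74% and 2.46% of genes did. With 3 libraries per label and this spread, a missed threshold does not show that the levels were alike. With the run of suffixes as a block the log2 fold changes of Ctsk were -0.41 at peak and -0.02 when resolving, and no gene of the 9 passed.

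The study's comparison within fibroblasts was between cells with and without a transcript of Hk2, the hexokinase that binds mitochondria. Cells with at least 1 Hk2 UMI (5657, median 6158 UMIs) were set against cells with none (6543, median 5302 UMIs) in each library, with Hk2 left out. None of 9 genes was called, where 4.02% of 10068 genes were higher and 2.86% lower (405 and 288 genes, and 264 and 571 with total counts, which moved the median of all genes by -0.11), and 41.3% had an unadjusted p under 0.05. Some small differences, under the limit of 0.5, ran the same way in CPM in every library. The CPM and these counts of libraries are not scaled by TMM, while the log2 fold changes are. Ctsb was thus lower in CPM in 10 of 12 libraries at a log2 fold change of 0.01. Ctsd was at 379 ± 58.6 CPM in Hk2-positive and 466 ± 70.0 CPM in Hk2-negative cells and was lower in 12 of 12 libraries (log2 fold change -0.19 ± 0.04, edgeR adjusted p = 0.000817). Ctsa (113 against 135 CPM, -0.15 ± 0.05, adjusted p = 0.0259) and Ctsz (283 against 327 CPM, -0.10 ± 0.04, adjusted p = 0.0369) were also lower in 12 of 12 libraries. Of genes with at least 120 UMIs, 7.65% were lower in 12 of 12. Ctsh was higher in 9 of 12 libraries (0.19 ± 0.05, edgeR adjusted p = 0.00393), and after thinning each cell to 2000 UMIs its log2 fold change was -0.03. When the Hk2-negative cells were sampled so that their clusters matched, that of Ctsd was -0.10 (edgeR, adjusted p = 0.0439).

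Another 69 genes of the lysosome were followed with the same tests: further cathepsins and proteases, cystatins and other inhibitors, sorting receptors, membrane and proton pump proteins, hydrolases and transcription factors. In the comparisons of types 55 of them were tested. Muscle-like cells had 3 higher (5.45%, against 16.4% of all genes) and 45 lower (81.8%, against 30.8%), among them all 9 tested genes of the lysosomal membrane and proton pump and 23 of 24 tested hydrolases and their partners. In 4 further types the share that was lower was about 50% or more. It was 32 genes in lymphatic endothelial-like cells (58.2%, against 26.4% of all genes), 31 in vascular endothelial-like cells (56.4%, against 26.7%), 28 in perivascular-like cells (50.9%, against 22.6%) and 27 in chondrocyte-like cells (49.1%, against 27.1%). Those higher in the same types were 4 (7.27%, against 12.9%), 7 (12.7%, against 26.8%), 4 (7.27%, against 17.7%) and 5 (9.09%, against 20.4%). Proliferating cells had 0 higher (against 7.59%) and 21 lower (38.2%, against 13.8%). The other types were nearer to all genes. Immune-like cells had 7 higher (12.7%, against 11.1%) and 14 lower (25.5%, against 19.4%), tenocyte-like cells 4 higher (7.27%, against 8.86%) and 12 lower (21.8%, against 11.7%), and osteoblast-like cells 8 higher (14.5%, against 13%) and 12 lower (21.8%, against 14.9%). In osteoblast-like cells Sort1, the sorting receptor sortilin (2.78 ± 0.29), and Prcp, a lysosomal carboxypeptidase (1.59 ± 0.15), were the most increased, and the protease inhibitors Serpinb1a (-2.89 ± 0.26) and Serpinb6a (-1.47 ± 0.12) the most reduced, each in 12 of 12 libraries. Of the 5 inhibitors tested, 4 were lower in osteoblast-like cells (Cstb, Serpinb1a, Serpinb6a and Cst6), where Cst3 was higher. In tenocyte-like cells Cst6, another secreted cystatin, was higher (1.81 ± 0.28, in 10 of 12 libraries), and Ctsc, which encodes cathepsin C, was lower (-2.83 ± 0.39, in 12 of 12). Immune-like cells had Ctsc higher by 3.24 ± 0.39 and Serpinb1a higher by 2.72 ± 0.33, in 3 of 3 libraries each, and Ids, a sulfatase, was lower there (-7.33 ± 2.08). Muscle-like cells had Cst6 higher by 2.92 ± 0.37 in 10 of 10 libraries and Dpp7, a dipeptidase, lower by the same count (-3.61 ± 0.55), while Sort1 passed the test (2.33 ± 0.65) with 3 of 10 libraries higher. In proliferating cells Mitf (-1.65 ± 0.29) and A2m (-2.18 ± 0.78) were the most reduced.

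Lrp1, the endocytic receptor that takes up protease complexes, was among the 2 genes of the list most reduced in vascular endothelial-like (-4.28 ± 0.16), lymphatic endothelial-like (-4.98 ± 0.28), perivascular-like (-3.03 ± 0.17), muscle-like (-2.90 ± 0.20) and immune-like cells (-3.33 ± 0.37). Sort1 was higher by 5.12 ± 0.27 in perivascular-like cells and by 5.11 ± 0.30 in chondrocyte-like cells, and A2m, a broad protease inhibitor, by 5.03 ± 0.45 in chondrocyte-like cells. In chondrocyte-like cells Ctsc (-4.83 ± 0.79) and Ctso, which encodes cathepsin O (-2.97 ± 0.27), were the most reduced. Perivascular-like cells also had Gla, a galactosidase, higher by 2.66 ± 0.22 and Arsb, a sulfatase, lower (-2.44 ± 0.27). Vascular endothelial-like cells had Prcp higher by 2.33 ± 0.15 and Sort1 by 1.47 ± 0.38, with the membrane protein gene Cd63 lower (-3.02 ± 0.14). Tfeb, a transcription factor of lysosomal genes, was higher by 1.69 ± 0.29 in lymphatic endothelial-like cells in 10 of 10 libraries. Mitf, another such factor, was lower there, as were 9 of the 10 cathepsin and cystatin C genes. Vascular endothelial-like and muscle-like cells likewise had Tfeb higher and Mitf lower. In lymphatic endothelial-like cells Lgmn, the lysosomal protease legumain, was higher by 1.35 ± 0.20, and Serpinb1a was lower (-5.43 ± 0.86). Tenocyte-like cells had Tfeb higher by 0.68 ± 0.17 in 9 of 12 libraries and Serpinb1a lower (-1.70 ± 0.22). Within fibroblasts 8 of 50 listed genes were higher in the lining-like subset (16%, against 11.8% of all genes) and 2 were lower (4%, against 14.5%), the higher ones led by Dnase2a, the lysosomal DNase (1.76 ± 0.14), and Gusb, a glucuronidase (1.13 ± 0.11), both in 12 of 12 libraries. Ctso (-0.51 ± 0.14) and Pla2g15, a lysosomal phospholipase (-0.59 ± 0.19), were the 2 that were lower. None of the 59 listed genes tested was called by Hk2 status or at any time point with edgeR.

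Genes with the most similar pattern over the 10 types with sums in at least 3 libraries were taken from 5029 genes that reached 50 CPM in at least 1 type, by Pearson's r of mean log2(CPM + 1). The types share libraries and differ in depth, and r over 10 points is a description. Ctsk was most like Scara3 (r = 0.940), Metrnl and Inhba, and Cst3 most like Omd (r = 0.889), Wif1 and Vit. Ctsb was nearest to Idh1 (r = 0.921), Fndc1 and Sfrp2, Ctsf to Bmp2 (r = 0.938), Sspn and Mxra8, and Ctsl to Dpysl3 (r = 0.911), Mocs2 and Cul1. Ctsa was nearest to Pld3 (r = 0.953), Smim14 and Ggh, and Ctsd to Dhrs7 (r = 0.930). Ctsh and Ctsz shared a pair of near neighbours, Ezr and Myo5a, with r = 0.947 for Ctsh with Ezr and 0.932 for Ctsz with Myo5a. Ctss was nearest to Trem1 (r = 0.999), Ccr1 and Itgam. That r was set by the immune-like point alone, since Ctss was at no more than 2.05 CPM on average in any other type.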

How the data were processed

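Live CD45-negative cells from hind limb joints were profiled by droplet 3′ single-cell RNA-seq in 12 libraries, 3 for each label. The deposited files hold raw UMI counts per gene and cell, made by the authors with Cell Ranger on the mouse genome mm10. The median deposited cell held 5358 UMIs in every library, while the mean per cell differed, and how the medians came to be equal is not given in the sources used here. The labels name no replicate source beyond pools of animals, so p-values at the time points measure the spread between pools. Where the library was a block, they measure how the difference within a library varied between pools. The 10 genes and the gene lists were chosen with earlier results of these data known.

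Cells were kept with over 500 and under 5000 genes and over 500 UMIs, with the upper UMI limits of the study's methods. Cells were normalised to 10000, and 2000 variable genes without the 10 genes, the other listed genes or Hk2 gave 30 principal components and Leiden clusters (resolution 1, scanpy 1.11.5). A cluster with markers of 2 types was clustered once more at resolution 0.5, and 27 clusters resulted. A cluster was named from fixed markers, with limits on the number of markers that were set after the clusters had been seen. The deposited counts came with no annotation of cells. Scrublet marked 56 cells (0.279%), too few to be taken as working, so no cell was removed and removal of the top 6% was an alternative. UMIs were summed per library and type (at least 10 cells) and tested with edgeR 4.0.16 (TMM, filterByExpr, two-sided, Benjamini-Hochberg over all genes, R 4.3.3), with DESeq2 1.42.0 as an alternative. SE is the size of the log2 fold change divided by the square root of F. All genes of the chosen list were named, and of the other listed genes mainly the 2 with the largest change each way among those called. The fits were tested on simulated data.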

Additional observations from a re-analysis of the deposited data

Results flagged for a closer look

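In 38 groups of 4 to 10 libraries, each the level of 1 gene in 1 cell type, Dixon's test at the 95% level marked 6, where chance alone marks about 1 in 20. Ctsk was at 275 CPM in the chondrocyte-like cells of resolved replicate 2 (17 cells), and the other 7 libraries lay between 68.3 and 124 CPM. In lymphatic endothelial-like cells Ctsk was at 101 CPM in resolving replicate 2 (11 cells) against 0 to 44.6 CPM, and Ctsa was at 133 CPM in resolving replicate 1 (14 cells) against 44.8 to 86.3 CPM. Ctsd was at 437 CPM in the muscle-like cells of resolved replicate 2 (10 cells), above 114 to 265 CPM in the others. Ctss was at 3.15 CPM in the chondrocyte-like cells of peak replicate 1 (56 cells) against 0 to 1.07 CPM, and at 1.15 CPM in the proliferating cells of peak replicate 2 (240 cells), where the others were at 0. All chondrocyte-like cells together held 4 Ctss UMIs and all proliferating cells 3. The rate of 1 in 20 does not hold for counts so near 0. The sums behind the first 4 values held 10 to 17 cells each.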

How the results depend on the processing

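Results were recomputed without the upper limits on genes and UMIs, with at most 10% mitochondrial UMIs, with the 6% highest doublet scores removed, at Leiden resolution 0.5, after thinning to 2000 UMIs, with RLE or total counts, with no filter, with DESeq2, without a library block, without each library, and, chosen after seeing the data, without each run of suffixes. The 3 libraries of a run were left out together. Of the 372 counts of calls and fibroblast levels, 356 stayed within their limits and 16 moved. Among the 10 genes over all types, 7 calls were higher (Ctss in immune-like and vascular endothelial-like cells among them) and 50 lower. By type, 7.59% to 26.8% of all genes were higher and 11.7% to 30.8% lower, and the types share the fibroblast sums. Leaving out 1 library gave 4 to 7 higher and 46 to 51 lower, with 4 without resolving replicate 2, and there were 3 higher without run 2 and 4 without run 3. In these settings fewer than 3 immune-like sums remained, so Ctss was not tested. Among single calls in tenocyte-like cells, Ctsb was lower without run 2 (-0.55) and Ctsd higher without run 4 (0.50). In the lining-like subset 3 genes were higher and 1 was lower. The counts were 3 to 4 and 0 to 1 without 1 library. There were 6 higher without upper limits, 5 with total counts and 5 without run 2, and 0 lower in these 3 settings, after thinning, without a library block and without run 1. Cst3, at -0.12 in the lining-like subset, turned to 0.58 when cells were clustered again without upper limits. The cause was not tested. Of single log2 fold changes, 3364 kept their side of the threshold, of which 160, all of them not called, changed sign. A further 41 passed it, 32 no longer did and 1 reversed.

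By Hk2 status and at the 3 time points, 0 genes of the 10 were called in either direction, also without each library (0 to 0). Of 9 pairs of libraries with the same number, 4 deviated together (r from 0.33 to 0.69) and 5 did not (r from -0.54 to -0.09), so a shared number was not treated as a pairing. With the replicate block, 0 genes were called at peak, resolving and resolved, and 135, 102 and 71 had an unadjusted p under 0.05. Ctsk was then at -0.36, 0.42 and 0.12. With the run as a block, 370, 455 and 487 did, with 0 called. Leiden resolution 0.5 gave no sublining-like cluster, and at resolution 1 no cluster had been left unnamed for being led by markers of another class, so those alternatives gave no value. At resolution 0.5 a cluster of 2320 cells with 7 fibroblast markers was left out in that way.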

Other observations

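The cells that carried most of the Ctsk of the immune-like clusters were few and came from the same run of suffixes, and they are described here as values with no explanation. All 4 cells with at least 4 of the 6 osteoclast markers belonged to run 2. The cells of peak replicate 2 held 157 and 279 Ctsk UMIs among 9693 and 22437 UMIs in all, which is 1.62% and 1.24% of their transcripts. The cell of resolved replicate 1 held 83 Ctsk UMIs of 12345 (0.672%) and that of rest replicate 2 held 26 of 13048 (0.199%). Acp5 was found in each of the 4, at 44 to 108 UMIs, and Calcr in none. They had been grouped with the cells led by Ly6d, Vpreb3 and Cd79b, a cluster of 38 cells in which 11 had a Ctsk UMI and Ctsk stood at 2136 CPM. The sort was meant to leave out CD45-positive cells, and the markers were chosen with earlier results of these data known.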
